A study of Mus musculus with 12 samples.

Results

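The 40 genes described here act in the G2 phase and in mitosis, and were chosen by name: cyclins, the mitotic kinases, the spindle checkpoint, kinesins and the proteins of chromosomes and cytokinesis. Of the 40 genes, 37 were matched to 50 of 12488 probe sets by the platform annotation, and 34 of them passed a filter on dim probe sets and were tested among 6400 features. Ccnb1, Cdc25b and Bub1b were matched to no probe set and were not analysed here. Bub1, Tacc3 and Cenpe had probe sets below the filter. RNA was measured on 12 Affymetrix MG_U74Av2 arrays, 6 of tumor and 6 of normal intestine, 1 array per sample. Every mouse was male, 91 days old and Min/+, that is, it carried a mutant allele of Apc, which makes intestinal adenomas form. Each tissue held a Dnmt+/- and a Dnmt+/+ array for each of diet #1, diet #2 and diet #3, and the labels give neither the contents of the diets nor which Dnmt gene was altered. The tumor and the normal array of a diet and genotype share a sample code, so that there are 6 code pairs. Whether a code is 1 animal, and whether each array had its own animals, is not in the labels. The p-values therefore reflect the spread among these 12 samples, some of which may be technical, and precision is limited by how many arrays there are.

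Entry into mitosis is driven by Cdk1 bound to cyclin B, which the phosphatases of the Cdc25 family switch on and the kinase Wee1 holds back. The spindle checkpoint then keeps the anaphase-promoting complex (APC/C), a ubiquitin ligase, inactive until every chromosome is attached to the spindle. In the intestine, dividing cells lie in the crypts, and the differentiated cells of the villus have left the cell cycle. In human and mouse cells many genes of this phase carry CCAAT boxes, which the factor NF-Y binds, and a cell cycle homology region (TTTGAA or TTTAAA), which MuvB complexes such as DREAM bind.

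The RefSeq table of promoters (GRCm38.p6, 250 bases before to 50 after an annotated start) held 32 of the 40 genes. TTTGAA stood in the window of 22 of these 32 genes (68.8%), against 20.2% of the 27025 genes in the table, with both strands read. TTTAAA stood in 7 of 32 genes (21.9%), against 14.9% of all genes. CCAAT stood in 27 of 32 genes (84.4%), against 41.1% of all genes, and 18 of the 32 had 2 or more, against 13.3% of all genes. Both CCAAT and one of the TTTGAA or TTTAAA motifs stood in 23 of 32 genes (71.9%), against 12.2% of all genes, and in 0 of the windows did CCAAT overlap with either. The 4 octamers searched for E2F (TTTCCCGC, TTTCGCGC, TTTGGCGC and TTTGCCGC) stood in 1 of 32 genes, Cdk1, 131 bases before its start, and in 704 of the 27025 genes. The 6 genes with TTTGAA and CCAAT and the largest called difference between tumor and normal intestine are printed, so that the arrangement of the motifs can be seen beside the values that follow. Each stretch runs 5′ to 3′ on the strand of the gene, 120 bases before to 30 after the start, with TTTGAA and CCAAT in capitals on either strand (read as TTCAAA and ATTGG on the other one). The stretches are chr3:89418262-89418411 (minus strand) for Cks1b, chr10:69352883-69353032 (minus) for Cdk1, chr9:83834569-83834718 (plus) for Ttk, chr7:80294331-80294480 (plus) for Prc1, chr11:99024160-99024309 (minus) for Top2a and chr3:27153825-27153974 (minus) for Ect2.
Cks1b: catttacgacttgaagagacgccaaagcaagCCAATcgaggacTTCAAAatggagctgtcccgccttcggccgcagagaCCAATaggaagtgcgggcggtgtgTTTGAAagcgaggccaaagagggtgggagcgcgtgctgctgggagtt
Cdk1: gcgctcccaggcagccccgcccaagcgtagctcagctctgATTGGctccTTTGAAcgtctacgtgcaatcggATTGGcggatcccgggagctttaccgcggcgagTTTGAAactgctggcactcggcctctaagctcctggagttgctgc
Ttk: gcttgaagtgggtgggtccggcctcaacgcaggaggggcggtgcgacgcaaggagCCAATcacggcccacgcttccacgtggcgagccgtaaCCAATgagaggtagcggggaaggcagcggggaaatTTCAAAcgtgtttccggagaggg
Prc1: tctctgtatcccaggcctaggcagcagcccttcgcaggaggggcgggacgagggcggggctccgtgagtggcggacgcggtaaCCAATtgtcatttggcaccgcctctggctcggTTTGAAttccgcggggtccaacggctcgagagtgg
Top2a: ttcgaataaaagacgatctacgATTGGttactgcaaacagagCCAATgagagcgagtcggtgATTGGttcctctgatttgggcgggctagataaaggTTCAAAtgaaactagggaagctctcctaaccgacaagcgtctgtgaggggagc
Ect2: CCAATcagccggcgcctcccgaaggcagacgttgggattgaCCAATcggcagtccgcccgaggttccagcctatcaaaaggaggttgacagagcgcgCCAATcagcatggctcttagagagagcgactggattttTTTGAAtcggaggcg
In Cdk1, Cks1b and Prc1 a TTTGAA began 15, 17 and 5 bases before the start, and in Ect2 it began 15 bases after it. On the other strand the motif began 23 bases before the start in Top2a and 7 bases after it in Ttk. Every printed stretch held a CCAAT upstream of that motif, and Top2a and Ect2 each held 3. Prc1 and Ect2 have a further annotated start in the table, which is not shown. A match is a description of the letters and not a measured binding site.

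Tumors carried more transcript of most of these genes. By limma with tissue, diet and genotype as terms, 24 of the 34 tested genes rose in tumor at an adjusted p under 0.05. Of the rest 0 fell and 10 did not pass. Over all 6400 features, 18.2% were higher and 16.9% lower in tumor. An unadjusted limma p under 0.05 was found for 27 of the 34 genes and for 2844 of the 6400 features. The tumor minus normal difference was above 0 for all 34 tested genes, with a median of 0.69 on the log2 scale and a range of 0.04 to 1.59, against a median of 0.0015 over all features. In all 6 code pairs the tumor array was above its normal array for 22 of the 34 genes and for 17.4% of all features. Every tumor array lay above every normal array for 10 of the 34 genes and for 6.17% of all features. In RNA from whole tissue, more cells of a type and more RNA per cell cannot be told apart.

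The scaling moves all features together. With median scaling in place of quantile normalization 847 features rose and 1551 fell, against 1167 and 1084 in the main analysis, and the median feature shifted by -0.10. On the values as deposited, 1358 rose and 729 fell, and the median feature shifted by 0.13. Of the 34 genes, 25 rose with median scaling and 29 on the values as deposited, and 0 fell with either; of their differences, that of Pttg1 changed sign (-0.0019 with median scaling). Median differences of the 34 genes were 0.58 and 0.83 under these scalings, which is above the shift of the median feature in both. The 5 further genes that passed on the values as deposited were Foxm1 (0.60), Cdc25c (0.64), Birc5 (0.87), Racgap1 (0.67) and Kif11 (0.59).

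The arrays differ in format and in tissue content. The 4 diet #1 arrays had mean deposited intensities of 306 to 403 and carried the value 50 for 40.8% to 45.9% of their probe sets, while the 8 others had a mean of 1000 and no such floor. Without the diet #1 arrays, 28 of the 34 genes rose and 0 fell (median 0.71), where 16.7% of all features were higher. Without the diet #2 arrays, whose normal intestine carried pancreas genes, 14 rose and 0 fell (median 0.68), where 10.2% of all features were higher. Without the diet #3 arrays 18 rose and 0 fell (median 0.71), where 10.7% of all features were higher. Fitted within single diets of 4 arrays each, diet #1 gave a median difference of 0.69, diet #2 0.76 and diet #3 0.72. The genes that rose numbered 0 in diet #1, where 0% of all features were higher, 21 in diet #2 (12% of all features) and 5 in diet #3 (4.17% of all features).

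Markers of several cell types moved with tissue. The summed normalized intensity of 8 of 11 listed crypt progenitor genes ranged from 5033 to 7341 in tumor, against 1912 to 2439 in normal intestine, and of the 5 tested 2 rose and 1 fell. Much of that sum was Prom1, a membrane protein gene, which rose by 2.10 ± 0.15 (log2, SE; mean log2 intensity 12.06 in tumor and 9.96 in normal intestine), while the receptor gene Ephb3 rose by 1.21 ± 0.38 and Msi1 fell (-1.13 ± 0.25), each with 1 array at the floor, and Ascl2 (0.50) and Bmi1 (0.27) did not pass. The sum of 7 of 7 general epithelial genes was 67770 to 71841 in tumor, against 34562 to 40763 in normal intestine, and 5 of the 7 rose, led by the keratin gene Krt18 (2.50 ± 0.10). For 7 of 7 fibroblast genes the sum was 9528 to 13393 in tumor, against 5872 to 8387 in normal intestine, and 4 of the 7 rose. These 3 sums were higher in tumor in all 6 code pairs. The ranges of the tissues overlapped for 11 of 14 villus enterocyte genes (116467 to 142687 in tumor, 107364 to 173596 in normal intestine), 7 of 7 smooth muscle genes (13326 to 21374 and 13002 to 26838) and 8 of 9 myeloid genes (7832 to 11452 and 5150 to 9092). Of the 11 tested villus genes 2 rose, Mep1a (2.64-fold, with 1 normal array at the floor) and Anpep (2.14-fold), and 3 fell, Mttp (-1.13 ± 0.20), Lct (-0.94 ± 0.18) and Fabp1 (-0.72 ± 0.21). Of the 4 tested myeloid genes 2 rose and 2 fell, and of the 7 smooth muscle genes 0 rose and 1 fell. They also overlapped for 7 of 8 B cell genes (816 to 3944 in tumor, 909 to 3258 in normal intestine), 8 of 9 T cell genes (379 to 1307 and 491 to 997) and 8 of 13 pancreas genes (2546 to 5552 and 2608 to 207763). Of these, 1 of 2 tested T cell genes fell, and 0 of 5 B cell genes and 0 of 8 pancreas genes passed. The sum was higher in tumor in 1 of 6 code pairs for B cell genes and in 1 for T cell genes. It was higher in 2 pairs for villus enterocyte genes, 2 for smooth muscle genes, 4 for myeloid genes and 3 for pancreas genes. No marker was at the floor on all 12 arrays, and the part of these cell types in the differences of the mitotic genes was not tested.

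**Figure D1:**
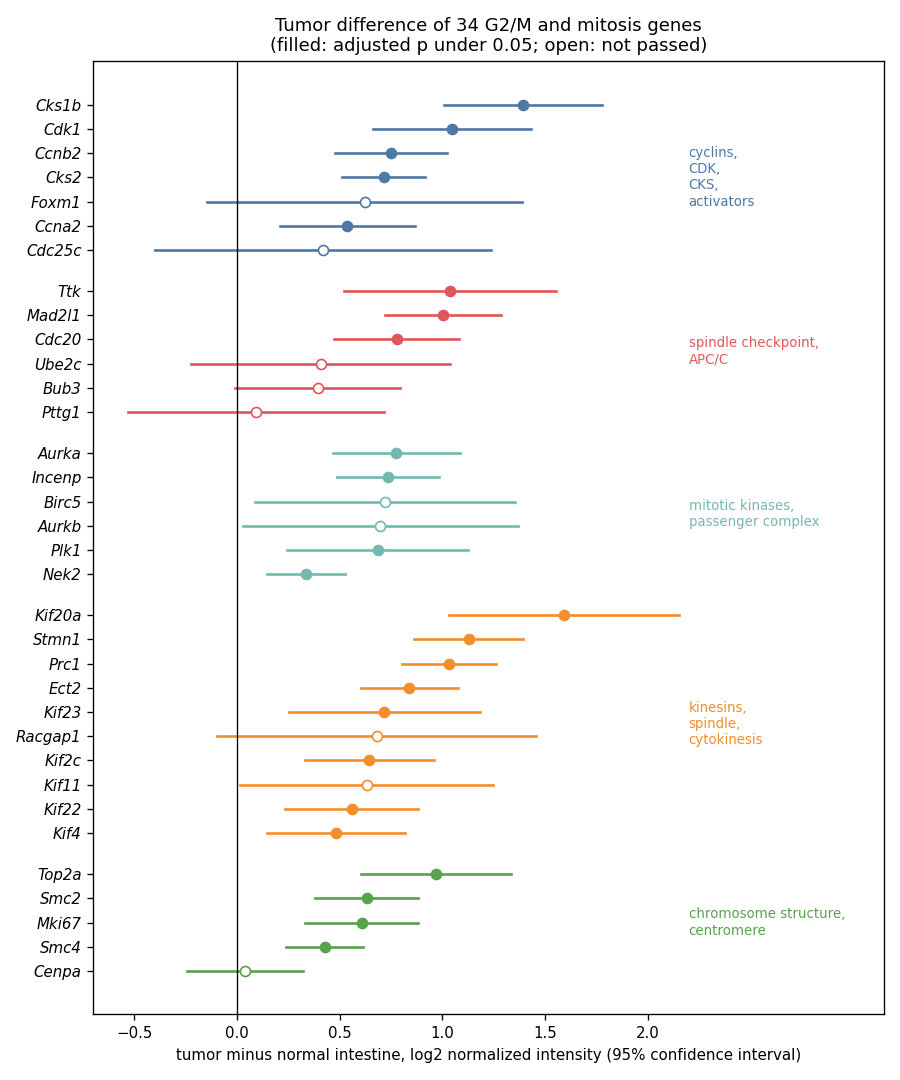
Tumor minus normal difference (x axis, log2 normalized intensity) of the 34 tested genes, grouped by role, with 95% confidence intervals from limma over 12 arrays and filled points for an adjusted p under 0.05. All 34 points lie right of 0, from 0.04 for Cenpa to 1.59 for Kif20a, and 24 are filled.

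The genes of the mitotic engine, cyclins and the kinase they switch on, rose in 5 of the 7 tested of 9 listed (median 0.71, log2). Cks1b, a small subunit that docks Cdk complexes to their substrates, read 646, 906 and 1413 in tumor as lowest, median and highest normalized intensity, against 260, 348 and 452 in normal intestine. No tumor array overlapped with a normal array. The difference was 1.39 ± 0.17 (log2, SE, n = 6 arrays per tissue), or 2.63-fold (limma adjusted p = 0.00033). Cdk1 itself, the kinase that drives entry into mitosis, read 1155, 1299 and 2120 in tumor, against 511, 719 and 754 in normal intestine. The groups did not overlap, and Cdk1 was 2.07-fold higher in tumor (1.05 ± 0.17, limma adjusted p = 0.0015). Ccnb2, a B-type cyclin and partner of Cdk1, read 2184, 2411 and 3788 in tumor, against 1191, 1581 and 2099 in normal intestine. Here too the groups did not overlap, and the gene was 1.68-fold higher (0.75 ± 0.12, limma adjusted p = 0.0015). Cks2, the paralog of Cks1b, rose by 0.71 ± 0.09 and was higher in tumor in all 6 pairs, although its groups overlapped. Ccna2, the cyclin of S phase and G2, rose by 0.54 ± 0.15 in 5 of 6 pairs, with the Dnmt+/- pair of diet #1 going the other way (-0.18).

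Foxm1, a transcription factor that activates many genes of this phase, did not pass. It read 273, 418 and 502 in tumor, against 48.9, 425 and 479 in normal intestine, so that the medians were alike and the groups overlapped. Its difference was 0.62 ± 0.34 (limma adjusted p = 0.19), and by diet it was 1.88 (diet #1), -0.03 (diet #2) and 0.01 (diet #3). Without the diet #1 arrays it was -0.0079. A dimmer Foxm1 probe set below the filter read 505 and 405 on the diet #1 tumor arrays, against 48.9 and 44.8 on the diet #1 normal arrays, and 44.8 to 71.5 on the other 8 arrays. Cdc25c, a phosphatase that activates Cdk1, differed by 0.42 ± 0.36 (limma adjusted p = 0.41), with 1 tumor array and 1 normal array of diet #1 at the floor. Without the diet #1 arrays it rose by 0.71 ± 0.13 (limma adjusted p = 0.0066), and without the Dnmt+/- normal array of diet #1 alone by 0.78 (limma adjusted p = 0.021).

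**Figure D2:**
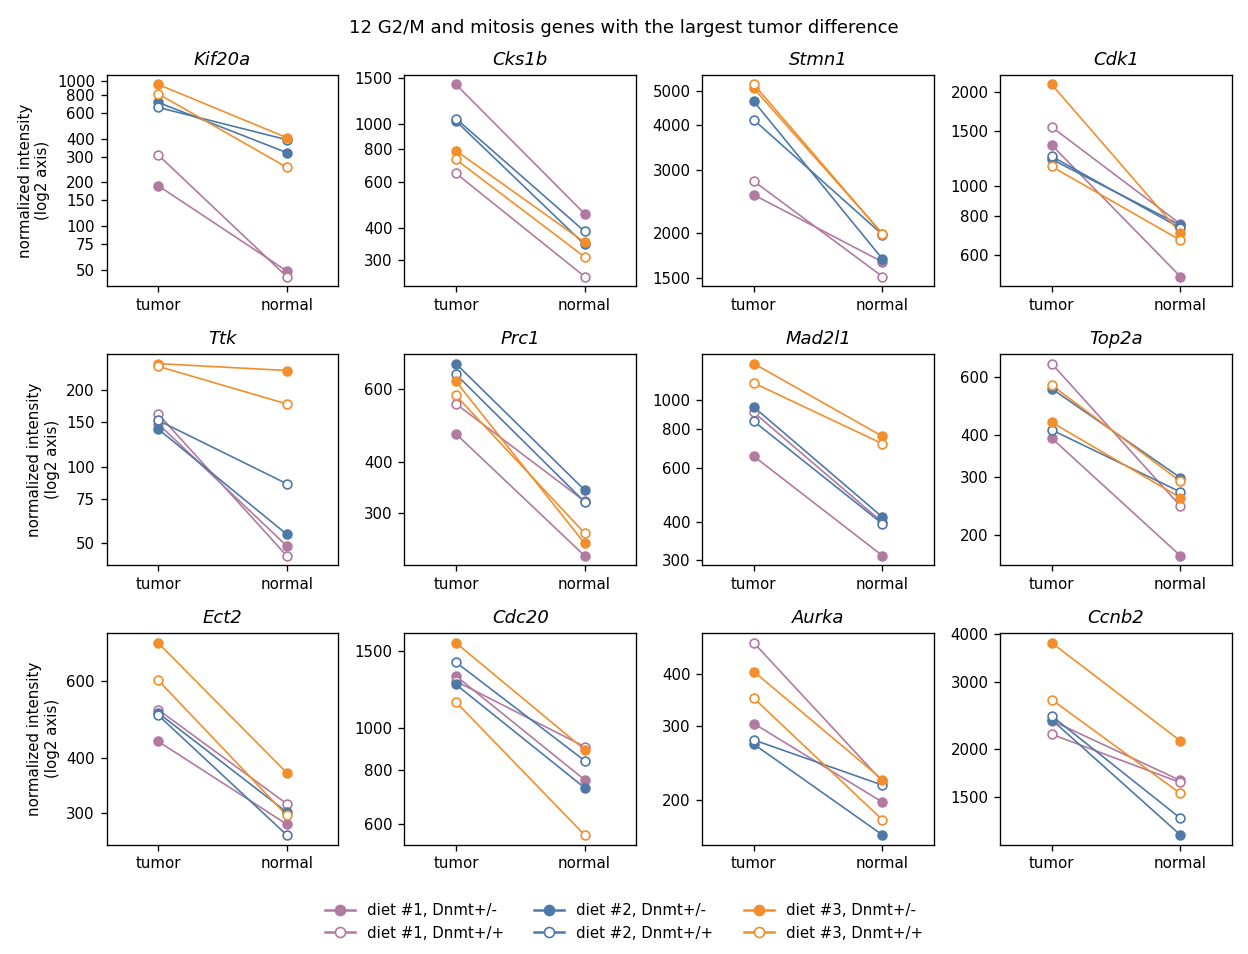
Normalized intensity (y axes, log2 scaled) of the 12 genes that rose most, with a line joining the tumor and the normal array of each of the 6 code pairs, colored by diet and filled for Dnmt+/-. The tumor array is the higher one in all 6 pairs of each gene, and the tissues do not overlap in 9 of the 12; Kif20a, Ttk and Mad2l1 overlap.

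Among the genes of the spindle checkpoint and the APC/C, 3 of the 6 tested of 8 listed rose (median 0.59). Mad2l1, which binds and holds back Cdc20 while chromosomes are unattached, read 654, 928 and 1312 in tumor, against 310, 406 and 760 in normal intestine. The groups overlapped because both diet #3 normal arrays (760 and 719) lay above the lowest tumor array, and within every pair the tumor was higher. Mad2l1 was 2.00-fold higher in tumor (1.00 ± 0.13, limma adjusted p = 0.00037). Cdc20, the activator of the APC/C that Mad2l1 restrains, read 1145, 1296 and 1566 in tumor, against 566, 799 and 904 in normal intestine. Its groups did not overlap, and it was 1.71-fold higher (0.78 ± 0.14, limma adjusted p = 0.0021).

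Ttk, the kinase that starts checkpoint signalling at the kinetochore, read 141, 157 and 254 in tumor, against 44.8, 70.1 and 239 in normal intestine, where both diet #1 arrays were at the floor. Its groups overlapped through the diet #3 normal arrays. The difference was 1.04 ± 0.23 (2.05-fold, limma adjusted p = 0.0071), and it depended on the floor and the scaling: it was 0.54 with median scaling, 0.48 with a floor at the 40th percentile, and 0.69 without the diet #1 arrays, where it did not pass (limma adjusted p = 0.057). By diet it was 1.72, 1.10 and 0.29 in diets #1, #2 and #3.

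Bub3, Ube2c and Pttg1 did not pass. Bub3, which brings checkpoint proteins to kinetochores, differed by 0.39 ± 0.18 (limma adjusted p = 0.12), and by 0.57 without the Dnmt+/- tumor array of diet #1 (limma adjusted p = 0.0028). Ube2c, the ubiquitin-conjugating enzyme that works with the APC/C, differed by 0.41 ± 0.28 (limma adjusted p = 0.29), and by 0.67 without the Dnmt+/+ tumor array of diet #1 (limma adjusted p = 0.022). Without all 4 diet #1 arrays both passed, at 0.61 ± 0.12 for Bub3 and 0.76 ± 0.21 for Ube2c (limma adjusted p = 0.0090 and 0.034). Pttg1, the securin that the APC/C destroys at anaphase, read 202, 717 and 975 in tumor, against 390, 462 and 1123 in normal intestine. It was higher in tumor in 3 pairs and lower in 3, with a difference of 0.09 ± 0.28 (limma adjusted p = 0.82): 0.50 in diet #3 and -0.22 in diet #2. Bub1, a checkpoint kinase below the filter, read 47.4, 131 and 136 in tumor, against 44.8, 74.0 and 111 in normal intestine by its brightest probe set, which overlap. It differed by 0.64 in the fit without the filter (limma adjusted p = 0.059).

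Of the 6 mitotic kinases and passenger proteins, all tested, 4 rose (median 0.71). Aurka, a kinase of the centrosome and spindle poles, read 272, 328 and 476 in tumor, against 164, 207 and 223 in normal intestine. The tissues did not overlap, and Aurka was 1.71-fold higher in tumor (0.78 ± 0.14, limma adjusted p = 0.0023). Plk1, the polo-like kinase needed from mitotic entry to cytokinesis, had 3 probe sets past the filter. The brightest rose by 0.69 ± 0.20 (limma adjusted p = 0.023), and the others by 0.66 ± 0.11 and 1.10 ± 0.19 when every probe set was tested (limma adjusted p = 0.0020 and 0.0022). All 3 were higher in tumor in all 6 pairs. The call of the brightest was lost in 4 of the 12 fits that leave out 1 array: without the Dnmt+/- tumor array of diet #2 or of diet #3, or the Dnmt+/+ normal array of diet #2 or of diet #3 (limma adjusted p up to 0.060). Nek2, a kinase that separates the centrosomes, rose by 0.34 ± 0.08 in all 6 pairs, with overlapping groups, and by 0.53 on the values as deposited.

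The chromosomal passenger complex, in which Incenp and Birc5 (survivin) hold the kinase Aurkb at the centromere, gave 1 rise among 3 genes. Incenp read 250, 406 and 527 in tumor, against 176, 213 and 350 in normal intestine by its brighter probe set. These groups overlapped, and the probe set was 1.67-fold higher, in all 6 pairs (0.74 ± 0.11, limma adjusted p = 0.0010). A dimmer Incenp probe set went the other way, with 119, 141 and 282 in tumor, against 113, 183 and 301 in normal intestine (-0.20 ± 0.14, limma adjusted p = 0.30). Birc5 did not pass, with a difference of 0.72 ± 0.28 (limma adjusted p = 0.076). Its differences were 1.23 in diet #1, 0.95 in diet #2 and -0.03 in diet #3, and it passed without the Dnmt+/- normal array of diet #3 (0.90) or the Dnmt+/+ tumor array of diet #3 (0.91; limma adjusted p = 0.033 and 0.029), and without all 4 diet #3 arrays (1.09, limma adjusted p = 0.041). Aurkb differed by 0.70 ± 0.30 (limma adjusted p = 0.099) and was at the floor on all 4 diet #1 arrays. Without them it rose by 1.06 ± 0.33 (limma adjusted p = 0.048).

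Kinesins and other proteins of the spindle and of cytokinesis rose in 8 of the 10 tested of 11 listed (median 0.70). Kif20a, a kinesin of the central spindle, differed most of the 34 genes in the main analysis, though not under every setting. It read 190, 687 and 951 in tumor, against 44.8, 288 and 408 in normal intestine. Both diet #1 arrays of normal intestine were at the floor, and the groups overlapped because the diet #1 tumor arrays (190 and 311) lay within the range of the normal arrays. The difference was 1.59 ± 0.25 (3.02-fold, limma adjusted p = 0.0012), a value that depends on the floor in diet #1, and was 1.20 ± 0.19 without the diet #1 arrays. Cks1b differed more than Kif20a there (1.35), with median scaling (1.32, against 1.10 for Kif20a), on the values as deposited (1.55, against 1.33) and with a floor at the 40th percentile (1.39, against 1.22). A dimmer Kif20a probe set, below the filter, differed by 0.99 in the fit without the filter (limma adjusted p = 0.031).

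Stmn1 (stathmin), which destabilises microtubules, read 2555, 4402 and 5200 in tumor, against 1511, 1836 and 1990 in normal intestine. Its groups did not overlap, and it was 2.19-fold higher (1.13 ± 0.12, limma adjusted p = 0.00013). Prc1, which bundles the microtubules of the central spindle, read 467, 601 and 690 in tumor, against 237, 294 and 342 in normal intestine. It did not overlap either, and was 2.05-fold higher (1.03 ± 0.10, limma adjusted p = 0.00010). Ect2, the exchange factor that activates RhoA at the cleavage furrow, read 437, 513 and 735 in tumor, against 267, 298 and 370 in normal intestine. Again the groups were apart, with Ect2 1.79-fold higher (0.84 ± 0.10, limma adjusted p = 0.00037).

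The partners of Ect2 differed in their calls. Kif23, which together with Racgap1 forms the centralspindlin complex that recruits Ect2, rose by 0.72 ± 0.21 in all 6 pairs (limma adjusted p = 0.024). It did not pass without the Dnmt+/+ tumor array of diet #1, the Dnmt+/- tumor array of diet #2 or the Dnmt+/+ normal array of diet #2 (limma adjusted p up to 0.060). Racgap1 differed by 0.68 ± 0.34 (limma adjusted p = 0.16), with 1 normal array of diet #1 at the floor, and passed at 0.57 ± 0.14 without the diet #1 arrays (limma adjusted p = 0.024) and at 0.96 without the Dnmt+/- normal array of diet #1 alone (limma adjusted p = 0.027).

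Of the other kinesins, Kif2c, which depolymerises microtubules at the centromere, rose by 0.64 ± 0.14, and Kif22, which moves chromosome arms, by 0.56 ± 0.14 in 5 of 6 pairs. Kif4, a kinesin of chromosome arms and the central spindle, rose by 0.48 ± 0.15 in 5 of 6 pairs (limma adjusted p = 0.031). The call was lost with the sample codes as a fixed replicate block (limma adjusted p = 0.051) and with a trended, robust variance (limma adjusted p = 0.061). It kept its call in 4 of the 12 fits that leave out 1 array, those without a Dnmt+/+ array of diet #1 or of diet #3, with differences of 0.37 to 0.56 over the 12 fits, and differed by 0.32 without the diet #2 arrays (limma adjusted p = 0.22) and 0.54 without the diet #3 arrays (limma adjusted p = 0.10). Kif11, the motor that pushes spindle poles apart, differed by 0.63 ± 0.27 (limma adjusted p = 0.10), was higher in tumor in all 6 pairs and had 1 normal array at the floor. It passed with median scaling (0.36, limma adjusted p = 0.045), on the values as deposited (0.59, limma adjusted p = 0.019), with the higher floor (0.46, limma adjusted p = 0.036) and without the Dnmt+/+ normal array of diet #1 (0.80, limma adjusted p = 0.046). Tacc3, a spindle pole protein below the filter, read 44.8, 86.7 and 101 in tumor, against 44.8, 50.2 and 67.6 in normal intestine (difference 0.50 in the fit without the filter, limma adjusted p = 0.065).

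Among the proteins of the chromosome itself, 4 of the 5 tested of 6 listed rose (median 0.61). Top2a, the topoisomerase that untangles sister chromatids, read 392, 494 and 656 in tumor, against 173, 265 and 298 in normal intestine. The tissues did not overlap, and Top2a was 1.96-fold higher in tumor (0.97 ± 0.16, limma adjusted p = 0.0017). Mki67, the source of the Ki-67 antigen used to stain dividing cells, read 748, 869 and 1096 in tumor, against 516, 580 and 720 in normal intestine by its brighter probe set. Those groups did not overlap and differed by 0.61 ± 0.12 (1.52-fold, limma adjusted p = 0.0045). A dimmer Mki67 probe set read 105, 133 and 506 in tumor, against 111.6, 167 and 545 in normal intestine. It was lower in tumor in all 6 pairs, by a smaller amount that did not pass (-0.22 ± 0.10, limma adjusted p = 0.11). Smc2 and Smc4, which form the core of condensin, rose by 0.63 ± 0.11 and 0.43 ± 0.08, each in all 6 pairs. Cenpa, the histone H3 variant of the centromere, read 213, 312 and 620 in tumor, against 220, 254 and 668 in normal intestine. It was higher in 3 pairs and lower in 3 (0.04 ± 0.13, limma adjusted p = 0.84). Cenpe, a centromere kinesin below the filter, read 44.8, 57.0 and 79.7 in tumor, against 44.8, 45.3 and 58.9 in normal intestine (0.28 in the fit without the filter, limma adjusted p = 0.22).

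**Figure D3:**
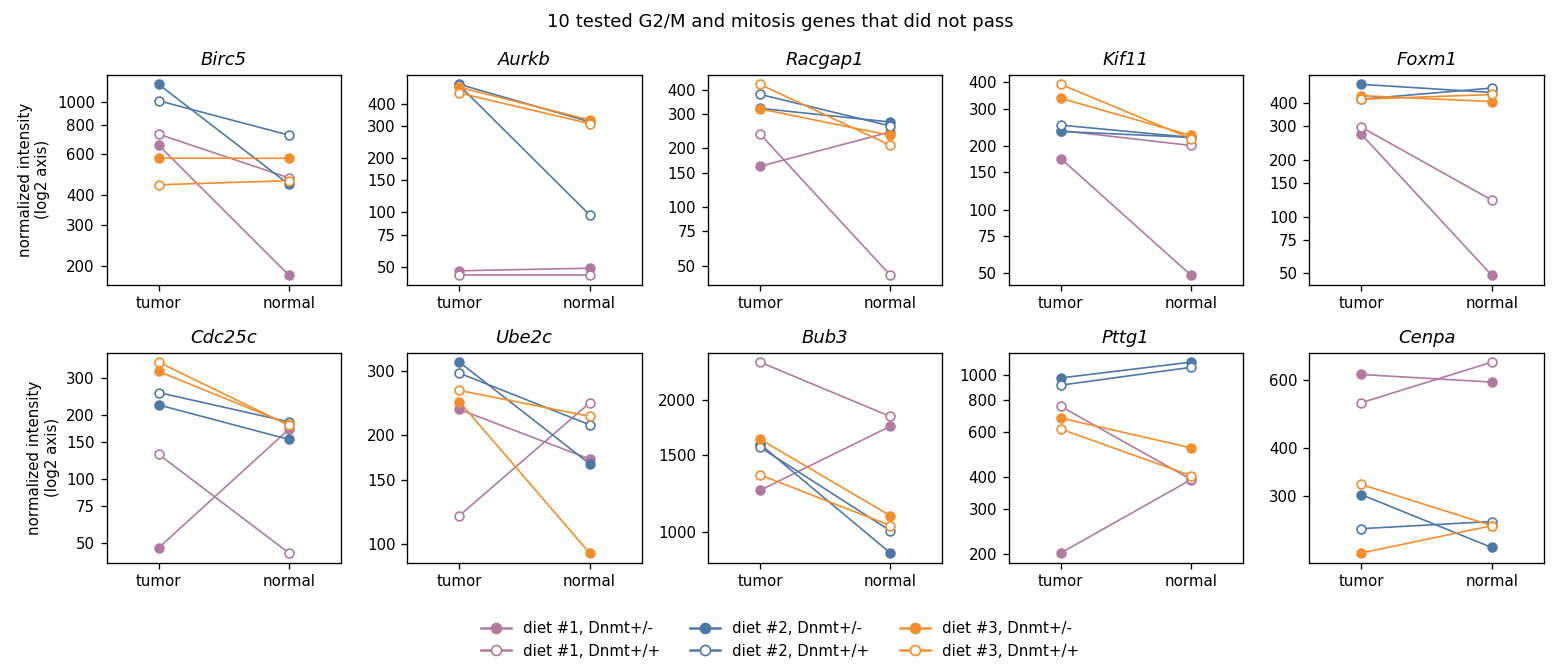
Normalized intensity (y axes, log2 scaled) of the 10 tested genes that did not pass, with a line joining the tumor and the normal array of each code pair, colored by diet and filled for Dnmt+/-. The diet #1 pairs run against the others or sit at the floor in several panels, as for Foxm1 (tumor minus normal 1.88 in diet #1, -0.03 in diet #2 and 0.01 in diet #3) and Aurkb.

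Code pair by code pair, the shift had a similar size. The median difference of the 34 genes was 0.71 in the Dnmt+/- pair of diet #1 and 0.69 in the Dnmt+/+ pair. It was 0.82 and 0.68 in the same pairs of diet #2, and 0.75 and 0.67 in those of diet #3. The tumor array was higher for 28 and 29 of the 34 genes in the diet #1 pairs, 33 and 31 in diet #2, and 33 and 32 in diet #3, against 46.0% to 50.4% of all features in each pair. In the map of differences by pair, Pttg1 and Cenpa were lower in tumor in 3 pairs each, Foxm1 in 2, and no other of the 34 genes in more than 1.

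**Figure D4:**
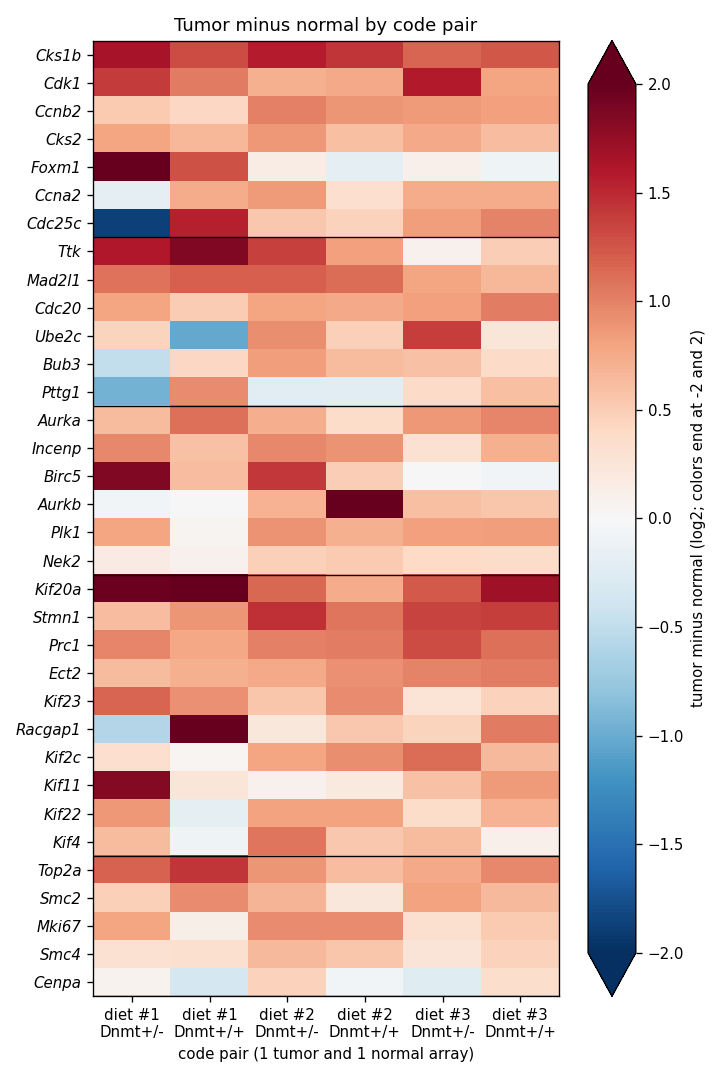
Tumor minus normal difference (color, log2) of the 34 tested genes in each of the 6 code pairs, with black lines between the role groups. Red (tumor higher) fills 28 to 33 of the 34 cells of each column, and the blue cells stand mostly in the diet #1 columns.

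The genotype comparison set Dnmt+/- against Dnmt+/+ arrays, with the sample codes as a random block. Of the 34 genes, 0 passed in limma, where 3 of 6400 features (0.0469%) passed. An unadjusted limma p under 0.05 was found for 2 of the 34 genes and for 451 of the 6400 features. The smallest p-values belonged to Incenp (-0.44 ± 0.10, log2, SE, with 6 arrays of each genotype, limma adjusted p = 0.64), Plk1 (-0.44 ± 0.19, adjusted p = 0.70) and Cks1b (0.34 ± 0.17, adjusted p = 0.70), as Dnmt+/- minus Dnmt+/+. Their 95% intervals ran from -0.66 to -0.22 for Incenp, from -0.86 to -0.02 for Plk1 and from -0.04 to 0.71 for Cks1b. Nor did the tissue difference pass a test for dependence on genotype in any of the 34 genes or in any feature (0%). In that limma test 1 of the 34 genes and 139 of the 6400 features had an unadjusted p under 0.05. The smallest p-values were those of Kif4 (0.59 ± 0.25), Racgap1 (-1.29 ± 0.62) and Ube2c (1.03 ± 0.50), each with a limma adjusted p of 1.00.

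Diet was compared between diets #2 and #3, whose arrays share a mean of 1000 and have no floor at 50. Their deposited values were written with different numbers of digits, and their sample codes end differently. Diet therefore cannot be told apart from how these files were made. Between these diets 2 of the 34 genes passed, both higher in diet #3, against 9.28% of all features in either direction. The count was 0 on the values as deposited, 0 at an adjusted p of 0.01 and 9 without the diet #1 arrays. All features were not counted in these alternatives, so the 9 cannot be set against a share. Ttk read 176 to 254 on the 4 diet #3 arrays, against 54.4 to 152 on the 4 diet #2 arrays, with no overlap (1.18 ± 0.25, limma adjusted p = 0.023). Mad2l1, which acts beside Ttk in the checkpoint, differed by 0.66 ± 0.14 (limma adjusted p = 0.026). In tumor it read 1312 and 1134 in diet #3, against 947 and 851 in diet #2, and in normal intestine 760 and 719, against 414 and 394. Both calls were lost without any 1 of 3 normal arrays, the Dnmt+/- arrays of diets #2 and #3 and the Dnmt+/+ array of diet #3. Without any 1 of both tumor arrays or the Dnmt+/+ normal array of diet #2, 1 gene passed, and without the Dnmt+/+ tumor array of diet #1, 4 passed. Over all 3 diets, 20 of 34 genes passed an F test, where 61.9% of all features did, and diet #1 cannot be told apart from its file format. Against diet #1, 16 genes differed in diet #2 (10 higher, 6 lower), where 54.3% of all features did, and 17 in diet #3 (13 higher, 4 lower), where 55.9% did. These shares of the genes were near those of all features, and the comparisons share the diet #1 arrays. Among them Cenpa was lower (-1.23 and -1.22) in diets #2 and #3. Its deposited values were 225 to 329 in diet #1 and 265 to 440 in the other diets. Those values are not on 1 scale, since the array means were 306 to 403 in diet #1 and 1000 in the others. The part of the scaling in the fall of Cenpa was not tested.

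Whether the tissue difference depended on diet was tested by an F test over the interaction terms. It was passed by 0 of the 34 genes, against 1.48% of all features. An unadjusted p under 0.05 in this test was found for 5 of the 34 genes and for 860 of the 6400 features. The smallest p-values were those of Foxm1 (limma adjusted p = 0.18), Ttk (0.20) and Kif20a (0.31). The tissue difference of Kif20a was 2.38 (diet #1), 0.95 (diet #2) and 1.45 (diet #3).

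The surrounding cell cycle genes, in 6 lists with 118 tested of 189 listed genes, gave 42 rises and 11 falls in tumor (median 0.27). Among inhibitors of mitotic entry and checkpoint genes, 6 of 16 fell and 2 rose (median -0.08). Gadd45a, a stress-induced inhibitor of Cdk1, fell (-1.01 ± 0.19, limma adjusted p = 0.0032), as did Wee1, the kinase that keeps Cdk1 inactive (-0.84 ± 0.25, limma adjusted p = 0.027, with 1 tumor array at the floor). Sfn, a 14-3-3 protein that holds Cdk1 in the cytoplasm, went the other way (1.50 ± 0.09, 2.83-fold). Of 15 genes of the APC/C, of SCF ligases and of mitotic exit, 7 rose and 0 fell (median 0.32), with Cdc16, an APC/C subunit with 2 normal arrays at the floor, at 1.01 ± 0.24, Skp1, an SCF subunit, at 0.67 ± 0.10 and Ube2s, which extends ubiquitin chains on APC/C targets, at 0.58 ± 0.15.

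Of 38 other spindle, centrosome and centromere genes, 16 rose and 0 fell (median 0.36). Dynll1, a dynein light chain, was 3.26-fold higher in tumor (1.71 ± 0.12), the tubulin gene Tubb5 2.48-fold (1.31 ± 0.10) and Anln, a scaffold of the cleavage furrow, 1.82-fold (0.86 ± 0.10). Among 5 cohesin and condensin genes outside the 40, 0 rose and 1 fell, Stag2 (-0.28 ± 0.08). Of 25 genes of DNA replication, 12 rose and 1 fell (median 0.52), with the ribonucleotide reductase gene Rrm1 3.37-fold higher (1.75 ± 0.54, with 1 tumor and 1 normal array at the floor), the helicase gene Mcm5 2.22-fold (1.15 ± 0.19) and Cdc6, which loads the helicase, 2.20-fold (1.14 ± 0.22, with 2 normal arrays at the floor). The one that fell was Gmnn (-0.47 ± 0.12), the inhibitor of helicase loading. Of 19 genes of the G1 to S transition, 5 rose and 3 fell (median 0.09): Ccnd1, a D-type cyclin and Wnt target, was 2.51-fold higher (1.33 ± 0.11), Myc 2.31-fold (1.21 ± 0.25, with 1 tumor and 2 normal arrays at the floor), and Rb1, the retinoblastoma gene, was lower (-1.14 ± 0.13). The lists were drawn up with earlier results of these data known, and their counts are given beside the 18.2% and 16.9% of all features without a test of the lists.

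**Figure D5:**
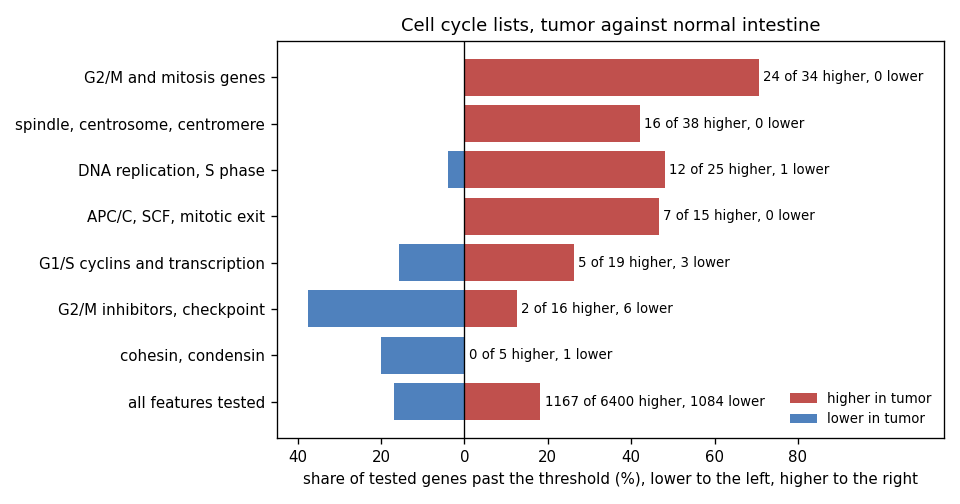
Share of tested genes past an adjusted p of 0.05 (x axis, percent), higher in tumor to the right and lower to the left, for the G2/M and mitosis genes, 6 other cell cycle lists and all 6400 features. The G2/M and mitosis bar reads 24 of 34 higher and 0 lower, and the list of inhibitors reads 2 of 16 higher and 6 lower.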

How the data were processed

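RNA of tumor and normal intestine was hybridised to Affymetrix MG_U74Av2 arrays of 1 colour, as the labels state. Each probe set has 1 deposited intensity per array, on a linear scale, and for its software the sources used here give no name. By the platform annotation 10833 probe sets carry 1 gene symbol, 396 carry several and 1193 carry none. From the 12488 probe sets 66 controls were removed, and the other 12422 were quantile normalized, raised to a floor at the 20th percentile (44.8) and put on the log2 scale. An array is called at the floor where it has this value or the value 50 of the diet #1 files. The dimmest 40% of probe sets by mean were dropped and each gene was represented by its brightest, leaving 6400 features, or 5648 named genes. The marker sums add the normalized intensity of the brightest probe set of each gene. Folds of dim genes depend on the floor.

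The tissue test used limma 3.58.1 (R 4.3.3) and a model that also held diet and genotype. For genotype, diet and the interactions the model took the sample code as random block, whose estimated correlation was -0.16 for genotype, diet and tissue by genotype and 0.04 for tissue by diet. Where it is negative, differences between codes are called more easily. P-values were adjusted by Benjamini-Hochberg over all features, with a threshold of 0.05. The tissue and genotype fits were first run on simulated arrays with independent normal noise, no correlation within codes and no floor. That simulation cannot check the block by code or the values at the floor.

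Pairing by code comes from the labels. Within codes, the correlation of deviations from the mean of each tissue was 0.46 to 0.68, and it was -0.57 to -0.38 once diet and genotype were taken out. Taking these terms out removes most of the variation between codes, which makes the correlation negative for independent arrays too. The second range therefore does not show how the arrays of a code vary together.

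Members, lists, motifs and tests were chosen with earlier results of these data known. Full statistics are given for the 12 genes past the threshold with the largest difference, any that fell (0 did) and those whose probe sets differ in sign (Incenp and Mki67). For the other comparisons the genes past the threshold are named, or the 3 of smallest p, and for each list the 3 past the threshold with the largest difference; other genes are accounted for briefly, and Cenpa against diet #1, Gmnn and the marker genes named were chosen after their values were seen. Alternatives were other scalings, floors, filters, probe sets, variances and thresholds, blocks by code, fits without a diet or within a diet or genotype, and each array left out.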

Additional observations from a re-analysis of the deposited data

Results flagged for a closer look

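Single arrays far from the other 5 of their tissue were looked for in the 34 tested genes, that is, in 68 groups of 6 arrays, by the gap to the nearest array as a share of the range. By the nominal cut-off chance marks about 1 in 20 such groups, and 8 of the 68 were marked, all of them by a diet #1 array. Other features were not examined in this way, and the diet #1 arrays differ in format. The count is therefore not read as a result about these genes.

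Among tumor arrays, Pttg1 read 202 on the Dnmt+/- array of diet #1, against 615 to 975 on the other 5, and Ube2c read 120 on the Dnmt+/+ array, against 235 to 317. Among normal arrays, the Dnmt+/- array of diet #1 was low for 4 genes. It read 511 for Cdk1 (669 to 754 on the others), 173 for Top2a (245 to 298), 182 for Birc5 (446 to 724) and 48.9 for Kif11 (201 to 224), the last being the floor of that file. The Dnmt+/+ normal array of diet #1 was at the floor, 44.8, for Cdc25c (154 to 187 on the others) and for Racgap1 (207 to 273). Cdk1 and Top2a rose in tumor with every array left out in turn, by 0.91 to 1.15 and 0.85 to 1.09 on the log2 scale.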

How the results depend on the processing

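Of the 24 genes that rose, 21 passed in all 12 fits that leave out 1 array, the exceptions being Plk1, Kif23 and Kif4. Over these fits the count of genes that rose ran from 21 to 25, where 953 to 1144 of all features were higher. The pairing by code moved no count by over 1.5 times (without the block, 17 genes passed the F test over diets). With the replicate block fixed, the count of genes that rose was 23 (1067 of all features), and with it random 24 (1092). It was 14 without the diet #2 arrays, 14 with tissue as the only term, 0 within diet #1, 5 within diet #3, 1 within Dnmt+/- and 5 within Dnmt+/+, where 650, 578, 0, 267, 90 and 208 of all features were higher, against 1167 in the main analysis; the fits within a diet or genotype rest on 4 or 6 arrays. The median difference was 0.58 with median scaling, 0.83 on the values as deposited, 0.76 within diet #2 and 0.79 within Dnmt+/-, and 0.65 to 0.77 with an array left out, the highest without the Dnmt+/+ normal array of diet #1. The count of genes that fell was 0 throughout. For the F test over diets, 33 genes passed on the values as deposited and 10 at an adjusted p of 0.01. Between diets #3 and #2, 0 passed on the values as deposited and at 0.01, 9 without the diet #1 arrays, and 0 to 4 with an array left out. For these alternatives of the diet tests the count over all features was not made. For tissue by diet, 1 passed with the floor at the 40th percentile and 0 to 2 with an array left out (2 without the Dnmt+/+ normal array of diet #1, and 1 each without its tumor partner or the Dnmt+/- normal array of diet #2). All features were not counted here either, so these counts cannot be set against a share. Genotype and tissue by genotype gave 0 in every alternative run.

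Sign changes were limited to 8 genes that had not passed, in 23 of 1079 recomputed differences, and touched 0 of the 24. The dimmer probe sets of Incenp and Mki67 (-0.20 and -0.22), genes among the 24, are not part of these recomputed differences. Pttg1 was -0.0019 with median scaling, -0.14 to 0.35 with an array left out, -0.11 without diet #3, -0.0017 within diet #1, -0.22 within diet #2 and -0.26 within Dnmt+/-. Cenpa was -0.039 to 0.11 with an array left out, -0.041 without diet #2, -0.14 within diet #1 and -0.019 within Dnmt+/+. Foxm1 was -0.0079 without diet #1 and -0.025 within diet #2. Within diet #1, Cdc25c was -0.16, Bub3 -0.037 and Ube2c -0.29. The -0.024 of Aurkb there is 1 of the 23 but shows no direction, since all 4 arrays were at the floor. Birc5 was -0.028 within diet #3, Cdc25c -0.16 within Dnmt+/- and Ube2c -0.11 within Dnmt+/+. The cause of these changes was not tested. Dim probe sets near the floor, above all on the diet #1 arrays, limit what can be read for Aurkb, Cdc25c, Ttk, Bub1, Tacc3 and Cenpe.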
